A study of Mus musculus with 6 samples.

Results

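The genes described here are 10 blood-lineage genes read in the LICs (leukemia-initiating cells) of a mouse model of acute myeloid leukemia: the transcription regulators Gata2, Tal1, Lmo2 and Lyl1 of stem and progenitor cells, the regulators Gata1, Gfi1b and Zfpm1 of the megakaryocyte and erythroid branch, and the platelet genes Pf4, Gp1bb and Itga2b. All 10 were found by symbol among the 27179 genes listed. They were picked by name with differences between these same libraries already known, and the rule itself compares the labels, so their differences are given as a description. Where the fit over all genes put a member past its threshold, that is stated but not read as evidence. The rule set no threshold on a value.

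Total RNA was sequenced from YFP+Mac-1+c-Kit+ cells of the bone marrow, in 3 libraries labelled WT (Asic3+/+) and 3 labelled Asic3-null (Asic3-/-). Strain and age were given as C57BL/6 and 8 weeks for all 6. In the methods of the study, a retrovirus with MLL-AF9-IRES-YFP, a leukemia fusion gene linked to a yellow fluorescent protein, was put into Lin- fetal liver cells of either genotype, which were then transplanted into lethally irradiated C57BL/6 mice, so both groups carried the same oncogene and marker. Below, the groups are called null-labelled and WT-labelled. The question was how loss of Asic3, an acid-sensing ion channel gene, alters LICs. The labels do not say whether the 3 libraries of a group came from separate animals, so p-values measure only the spread between these samples.

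GATA factors bind DNA through zinc fingers, and blood development is known for a handover from GATA2 in stem and progenitor cells to GATA1 in megakaryocyte and erythroid precursors. TAL1 or LYL1 pairs with E proteins, and LMO2 and LDB1 bridge such a pair to a GATA factor in a shared complex. FOG1, the product of Zfpm1, is a cofactor that GATA proteins bind, GFI1B is a repressor that recruits the demethylase LSD1, and platelet genes such as Pf4 are classical targets of GATA1.

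The libraries held between 1947168 and 2381861 reads, so a single read in a 2 kb gene came to 0.210 to 0.257 RPKM (reads per kilobase of gene, scaled to library size). Asic3 itself went against the labels: it stood at 9.12, 4.11 and 6.58 RPKM in the null-labelled libraries and at 1.22, 1.85 and 0.435 RPKM in the WT-labelled ones (log2 fold change 1.81, SE 0.35, adjusted p = 0.026 in limma). Leaving out Asic3-null replicate 1 or 3, or WT replicate 1 or 3, ended that call, with log2 fold changes from 1.54 to 1.85. The call also ended with no filter and with the replicate number as a block. This is a value for the whole gene, so it does not show whether a deleted stretch is missing. Directions below follow the labels as given, and each would turn round if the labels of the groups were exchanged, which was not tested. Xist averaged 58.0 ± 12.9 RPKM (SD, n = 3) in the null-labelled libraries and 0.0358 ± 0.0187 in the WT-labelled ones, and the summed RPKM of Eif2s3y, Ddx3y, Kdm5d and Uty on the Y chromosome was 0 against 81.4 to 118, so the genotype label and the sex of the cells cannot be told apart. Itgam, which encodes a chain of Mac-1, fell to 14.0 ± 2.51 from 76.8 ± 18.8 RPKM (adjusted p = 0.00072, limma). Kit, the gene of the other sorted marker, stood at 17.6 ± 3.00 against 11.1 ± 3.60 (adjusted p = 0.219, limma). All 10 neutrophil granule genes listed, S100a8, S100a9 and Chil3 at their head, were called lower in the null-labelled libraries, with a summed level of 324 to 509 RPKM against 4379 to 5320. Over all tested genes 2.82% were called lower. Mpo, on the list of sorted cell markers, overlapped and was not called, at 288 ± 47.2 against 509 ± 301 RPKM (adjusted p = 0.534, limma). The part of sex and of these granule genes in the values below was not tested. In bulk RNA, fewer cells of a type and less RNA per cell cannot be told apart.

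The members spanned a wide range of levels. Averaged over the 6 libraries, Lmo2 stood at 189 RPKM, Lyl1 at 160.0, Gata2 at 42.1, Itga2b at 12.04, Zfpm1 at 5.30, Gp1bb at 3.71 and Gfi1b at 1.65 RPKM. Tal1, Gata1 and Pf4 were at or near 0. The ranges of Lmo2 and Lyl1 over the libraries overlapped, as did those of Itga2b and Zfpm1, of Zfpm1 and Gp1bb, and of Gp1bb and Gfi1b, while Gata2 lay wholly below Lyl1 and wholly above Itga2b. Lmo2 was higher than 96.8% of the 12037 tested genes, and Gfi1b was higher than 6.46% of them.

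A megakaryocyte-erythroid program is therefore a poor name for what was measured, and the genes are called below by their roles. Of 10 defining platelet markers, 4 were at 0 in every library (Pf4, Ppbp, Gp6 and Tubb1), 9 averaged under 1 RPKM, and only Itgb3 reached it. Their summed level was 7.82 to 11.6 RPKM in the null-labelled libraries and 9.57 to 12.9 in the WT-labelled ones. Among 7 defining erythroid markers, Slc4a1, the anion exchanger of red cells, was at 0 in every library, and the summed level was 0.972 to 2.41 RPKM against 2.32 to 7.43.

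**Figure D1:**
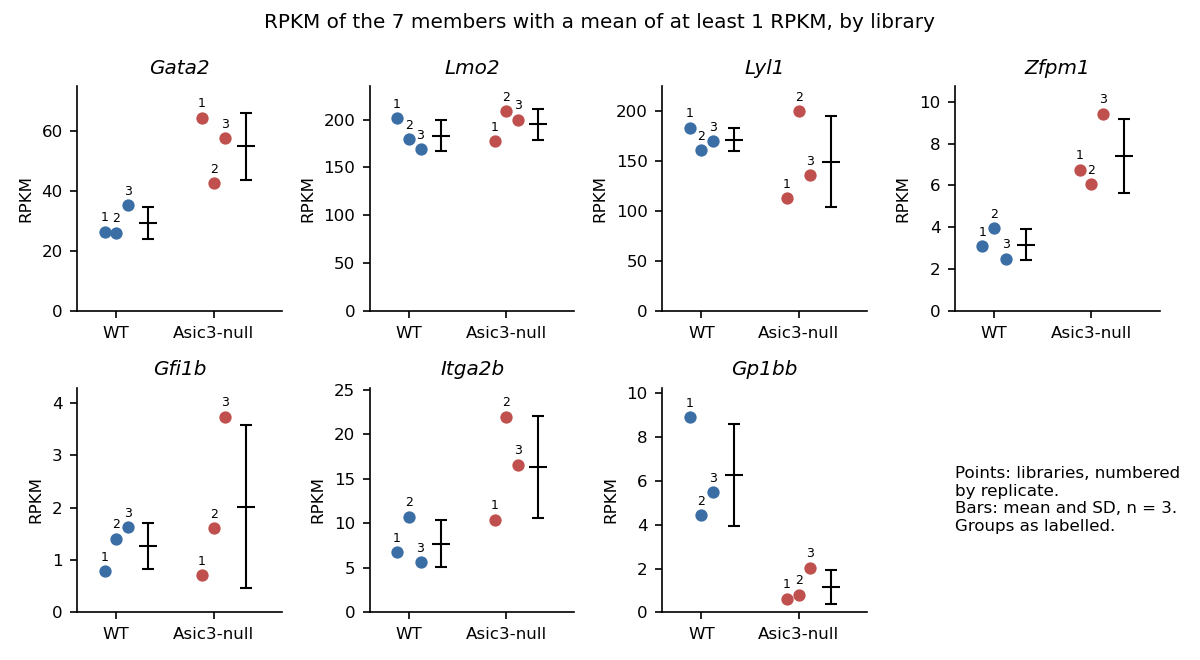
RPKM of the 7 members that averaged at least 1 RPKM, each panel with its own axis from 0. Points are the libraries, numbered by replicate, with the mean and SD of each label beside them (n = 3). Gata2 and Zfpm1 are higher and Gp1bb lower in every null-labelled library than in any WT-labelled one, and the other 4 overlap.

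Of the 10 members, 7 averaged at least 1 RPKM and entered the fit over all genes, and Tal1, Gata1 and Pf4 did not. Gata2 was past the threshold on the higher side and Gp1bb on the lower, an adjusted p under 0.05 in limma. Over all tested genes 3.35% were past it in either direction, 0.523% higher and 2.82% lower in the null-labelled libraries. The groups did not overlap for 3 of the 7 members, for Gata2 and Zfpm1 higher and for Gp1bb lower, and the same held for 22.6% of all tested genes, 11.2% higher and 11.4% lower. Because the members were chosen on this contrast, nothing is read from these counts. The median log2 fold change of the 7 members was 0.30, and that of all tested genes was 0.03.

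**Figure D2:**
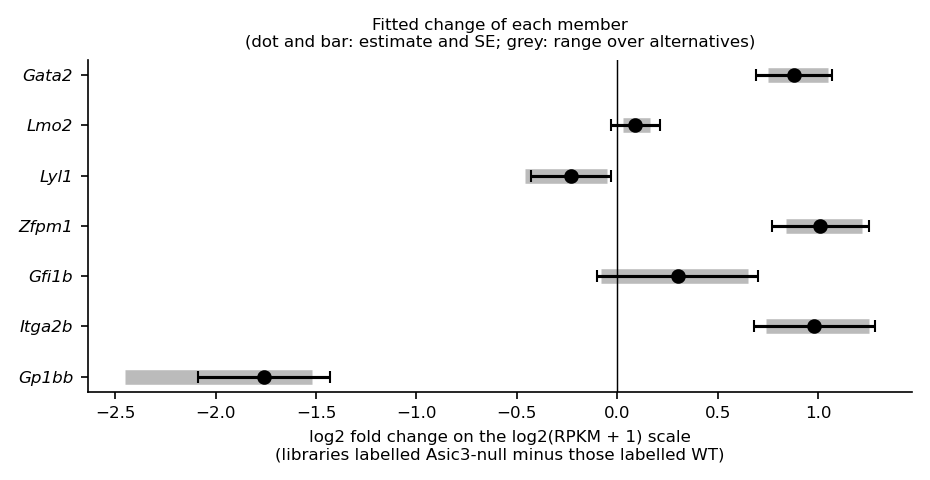
Fitted log2 fold change of the 7 members, null-labelled minus WT-labelled libraries, on the log2(RPKM + 1) scale. Dots and black bars are the estimate and its SE, and grey bars span the alternatives of processing. Gata2, Zfpm1 and Itga2b lie at 0.88, 1.01 and 0.98, Lmo2, Lyl1 and Gfi1b at 0.09, -0.23 and 0.30, and Gp1bb at -1.76.

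Among the stem and progenitor factors, Gata2 was about double in the null-labelled libraries, while its complex partners Lmo2 and Lyl1 stood at like levels under both labels. Gata2 (Entrez 14461, chr6:88193891-88207032, GRCm38) is the GATA factor of hematopoietic stem cells. It stood at 64.5, 42.6 and 57.6 RPKM in Asic3-null replicates 1 to 3, from 484, 329 and 439 reads, and at 26.4, 26.1 and 35.3 RPKM in WT replicates 1 to 3, from 180, 165 and 271 reads. All null-labelled libraries were above all the WT-labelled ones, the nearest being Asic3-null replicate 2 and WT replicate 3. Mean levels were 54.9 ± 11.2 and 29.3 ± 5.22 RPKM (SD, n = 3 per label), a ratio of 1.88 and a log2 fold change of 0.88 (SE 0.19). The position past the threshold was kept in 6 of 14 alternatives, while the log2 fold change stayed between 0.75 and 1.05. With all 6 libraries, that position was lost with no filter, with no intensity trend and with the replicate block. It was also lost without any 1 of Asic3-null replicates 1 and 3 and WT replicates 1, 2 and 3.

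Gata2 was also the only one of the 6 GATA factor genes with more than 1 read. Gata3, Gata4, Gata5 and Gata6 had no read in any library. Gata1 (Entrez 14460, chrX:7959260-7976663), the X-linked master factor of the erythroid and megakaryocyte branch, had 1 read in all, in WT replicate 3, which gave 0.234 RPKM there and 0 elsewhere. At this depth no difference in Gata1 was detectable.

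Lmo2 (Entrez 16909, chr2:103957903-103981878) makes the bridging LIM-domain protein of the complex. It stood at 177, 209 and 199.9 RPKM in the null-labelled libraries and at 201, 179 and 169 RPKM in the WT-labelled ones. The groups overlapped across nearly their full range. The means were 195 ± 16.3 and 183 ± 16.4 RPKM, with a log2 fold change of 0.09 (SE 0.12).

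Lyl1 (Entrez 17095, chr8:84701423-84704716), a basic helix-loop-helix factor closely related to TAL1, stood at 112, 199 and 136 RPKM in the null-labelled libraries and at 183, 160.3 and 169 RPKM in the WT-labelled ones. Asic3-null replicate 2 held the highest value and replicate 1 the lowest, so the SD was 45.1 about a mean of 149 RPKM, against 11.4 about 171. The log2 fold change was -0.23 (SE 0.20). Tal1 (Entrez 21349, chr4:115056426-115071755), whose product founds the blood lineage, had 0, 2 and 1 reads in the null-labelled libraries and none in the WT-labelled ones, or at most 0.202 RPKM, and no fold is given at that depth. Its relative Tal2 had no read. Of the 3 genes of this basic helix-loop-helix group, only Lyl1 could be tested.

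Since Lmo2 and Lyl1 did not follow Gata2, the ratio of the factors shifted between libraries. Gata2 per Lyl1 was 0.574, 0.214 and 0.425 in the null-labelled libraries and 0.144, 0.163 and 0.208 in the WT-labelled ones, a small gap at its nearest. Gata2 per Lmo2 was 0.364, 0.204 and 0.288 against 0.131, 0.146 and 0.209, and these overlapped through Asic3-null replicate 2 and WT replicate 3. Gata2 per Spi1 was 0.190, 0.140 and 0.192 against 0.0591, 0.0668 and 0.0901, with no overlap. Spi1 encodes PU.1, the myeloid factor that opposes GATA proteins, and stood at 314 ± 21.5 RPKM against 410 ± 31.7 (adjusted p = 0.136, limma). Cebpa, another myeloid factor gene, stood at 105 ± 12.3 RPKM against 130.0 ± 17.4 (adjusted p = 0.344, limma). Ratios are of RPKM, thus per length of gene, and were chosen after the values were seen.

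The megakaryocyte-erythroid factors were low. Zfpm1 (Entrez 22761, chr8:122281856-122337862), the gene of FOG1, stood at 6.76, 6.08 and 9.43 RPKM from 53, 49 and 75 reads in the null-labelled libraries, and at 3.09, 3.94 and 2.50 RPKM from 22, 26 and 20 reads in the WT-labelled ones. The groups did not overlap. The means were 7.42 ± 1.77 and 3.18 ± 0.728 RPKM, a ratio of 2.34 and a log2 fold change of 1.01 (SE 0.24), which ran from 0.84 to 1.22 over the alternatives. It was past the threshold in 2 of 14 alternatives, quantile normalization and limma-voom on recovered reads. Zfpm1 per Gata2 overlapped between the labels, at 0.105, 0.143 and 0.164 against 0.117, 0.151 and 0.0707, and the relative Zfpm2 had no read.

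Gfi1b (Entrez 14582, chr2:28609450-28621982), a zinc-finger repressor needed in both branches, rested on 3, 7 and 16 reads in the null-labelled libraries and on 3, 5 and 7 in the WT-labelled ones. These gave 0.711, 1.61 and 3.74 RPKM against 0.783, 1.41 and 1.62. Only Asic3-null replicate 3 lay above the WT-labelled libraries, and without it the log2 fold change went from 0.30 (SE 0.40) to -0.08. Its relative Gfi1, the form of granulocyte precursors, was far higher, at 29.4, 32.0 and 26.2 RPKM against 32.7, 28.5 and 34.2, with overlap.

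The 3 platelet genes went different ways: Gp1bb was lower in the null-labelled libraries, Itga2b tended higher with overlap, and Pf4 was not detected. Their promoter windows are shown because the 3 are textbook GATA targets, with that of Gfi1b as 1 of the factor genes with a match. Each is the 250 bases before a RefSeq start (GRCm38.p6), on the strand of the gene, and capitals mark a GATA hexamer (AGATAA or AGATAG, and likewise TGATAA or TGATAG, on either strand). The windows are Gp1bb at chr16:18622404-18622653 on the minus strand, Itga2b at chr11:102469884-102470133 on the minus strand, Pf4 at chr5:90772185-90772434 on the plus strand and Gfi1b at chr2:28621983-28622232 on the minus strand.
Gp1bb: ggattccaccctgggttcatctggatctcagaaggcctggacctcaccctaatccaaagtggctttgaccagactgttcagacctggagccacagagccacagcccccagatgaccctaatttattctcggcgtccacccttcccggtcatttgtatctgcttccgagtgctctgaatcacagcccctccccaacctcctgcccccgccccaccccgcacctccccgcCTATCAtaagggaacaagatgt
Itga2b: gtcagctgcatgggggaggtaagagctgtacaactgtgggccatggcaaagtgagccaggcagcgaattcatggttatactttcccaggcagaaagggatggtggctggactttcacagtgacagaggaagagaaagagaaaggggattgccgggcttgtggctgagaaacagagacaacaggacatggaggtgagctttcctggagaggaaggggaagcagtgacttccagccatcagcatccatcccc
Pf4: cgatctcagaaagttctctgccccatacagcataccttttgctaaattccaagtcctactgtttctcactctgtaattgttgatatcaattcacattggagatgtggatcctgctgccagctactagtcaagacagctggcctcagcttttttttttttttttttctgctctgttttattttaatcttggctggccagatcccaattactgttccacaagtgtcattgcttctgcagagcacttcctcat
Gfi1b: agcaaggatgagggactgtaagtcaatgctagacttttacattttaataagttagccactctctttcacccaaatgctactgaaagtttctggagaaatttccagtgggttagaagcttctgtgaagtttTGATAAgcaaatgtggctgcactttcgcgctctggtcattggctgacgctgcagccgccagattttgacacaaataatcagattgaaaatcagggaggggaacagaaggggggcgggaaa
The match in Gp1bb lies 22 bases before the start and reads CTATCA, and the one in Gfi1b lies 120 bases before it and reads TGATAA. Itga2b and Pf4 hold no such hexamer in these windows. Over the 9 members with an entry, 3 of 11 windows held a match, the third being 1 of Tal1, and 26.5% of all 32851 windows did. An E-box (CAGCTG or CAGATG, on either strand) was in the windows of Gp1bb, Itga2b and Pf4 alone, and in 25.5% of all windows. The hexamer CGGAAG, an ETS core, was in those of Gp1bb, Lyl1 and Zfpm1 and in 13.6% of all windows.

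Gp1bb (Entrez 14724, chr16:18620319-18622403) encodes the beta chain of the platelet receptor for von Willebrand factor. It stood at 0.621, 0.805 and 2.04 RPKM from 3, 4 and 10 reads in the null-labelled libraries, and at 8.90, 4.43 and 5.47 RPKM from 39, 18 and 27 reads in the WT-labelled ones. All null-labelled libraries were lower. The means were 1.16 ± 0.773 and 6.27 ± 2.34 RPKM, a ratio of 0.185 and a log2 fold change of -1.76 (SE 0.33). The position past the threshold was kept in 6 of 13 alternatives, with log2 fold changes from -2.45 to -1.52. That position was lost with no filter and with the replicate block. It was also lost without any 1 of Asic3-null replicates 1 and 2 and WT replicates 1, 2 and 3.

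In the bases they share, reads of Gp1bb cannot be told apart from those of its neighbour Septin5, named here after its values were seen. In the RefSeq annotation Septin5 (chr16:18621811-18629938) lies on the same strand and shares 593 of the 2085 bases of Gp1bb, and in GENCODE M21 its span (chr16:18620502-18629954) covers 1902 of them, or 91.2%. Septin5, which makes a filament protein, stood at 4.26, 3.95 and 7.61 RPKM in the null-labelled libraries and at 30.0, 21.01 and 20.7 RPKM in the WT-labelled ones. It fell with no overlap (log2 fold change -2.01, SE 0.25, adjusted p = 0.0037 in limma), and was past the threshold in all 14 alternatives. Gp1bb per Septin5 was 0.146, 0.204 and 0.268 against 0.297, 0.211 and 0.265, and these overlapped. How many of the reads listed for Gp1bb come from either gene is therefore uncertain. Among the other chains of the receptor, Gp1ba was also lower without overlap, at 0.790, 0.461 and 0.468 RPKM from 5, 3 and 3 reads against 1.04, 1.504 and 1.08 RPKM from 6, 8 and 7 reads. It averaged 0.892 RPKM over the 6 libraries and was not tested. Gp9 had 1, 1 and 1 reads against 0, 1 and 1, with overlap, and Gp5 had 1 read in all, in Asic3-null replicate 3. These chains were looked at with their values known, and 11.4% of all tested genes were lower without overlap.

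**Figure D3:**
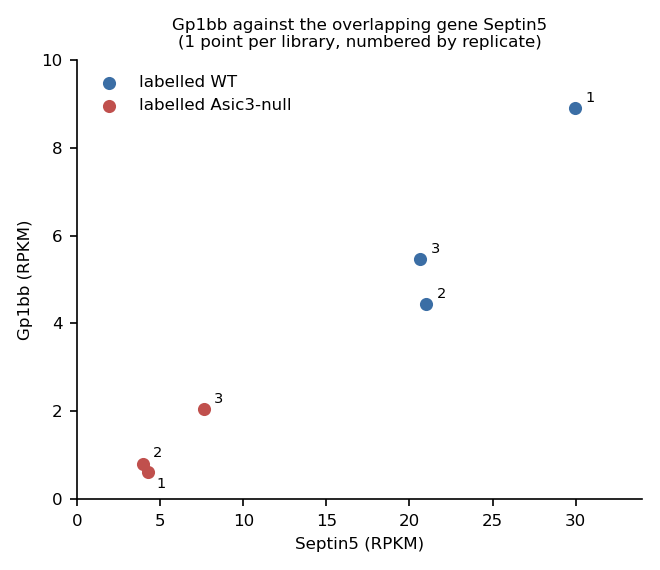
Gp1bb against Septin5, both in RPKM on linear axes from 0, 1 point per library with its replicate number. The null-labelled libraries sit at 3.95 to 7.61 RPKM of Septin5 and the WT-labelled ones at 20.7 to 30.0, and Gp1bb is low where Septin5 is low.

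Itga2b (Entrez 16399, chr11:102453297-102469883) encodes CD41, the integrin chain of platelets that also marks early hematopoietic progenitors. It stood at 10.4, 22.0 and 16.6 RPKM from 83, 180 and 134 reads in the null-labelled libraries, and at 6.78, 10.8 and 5.65 RPKM from 49, 72 and 46 reads in the WT-labelled ones. The groups overlapped only through Asic3-null replicate 1 and WT replicate 2. The means were 16.3 ± 5.78 and 7.73 ± 2.68 RPKM, a ratio of 2.11 and a log2 fold change of 0.98 (SE 0.30), and no alternative put it past the threshold. WT replicate 2 was also the WT library with the highest level of Cpa3, the mast cell carboxypeptidase, at 101 RPKM against 27.5 and 36.3 in the others. Of the 6 tested mast cell, basophil and eosinophil genes, Hdc, Epx and Prg2 were likewise highest there among the WT libraries. Mcpt8 and Csf2rb were not. Cpa3 also ordered the null-labelled libraries as Itga2b did, at 65.1, 103 and 80.6 RPKM in replicates 1 to 3. The part of the make-up of WT replicate 2 in Itga2b was not tested.

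CD41 reaches the cell surface only as a pair with the beta chain made by Itgb3, which did not follow it. Itgb3 stood at 8.85 ± 2.08 RPKM in the null-labelled libraries and at 8.28 ± 1.88 in the WT-labelled ones (adjusted p = 0.901, limma). Itga2b per Itgb3 was 1.60, 2.29 and 1.59 against 1.03, 1.04 and 0.710, with no overlap, a ratio chosen after the values were seen. Pf4 (Entrez 56744, chr5:90772435-90773383), the chemokine of platelet alpha granules, had 0 reads among the 13462807 of the 6 libraries, and a count of 0 allows up to 3 reads over all of them. No difference in Pf4 was detectable at this depth.

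Set against each other, the stem and progenitor factors and the platelet genes differed in direction on average, but few genes carried it. The 3 tested stem and progenitor factors (Gata2, Lmo2 and Lyl1) averaged 6.78, 6.93 and 6.87 on the log2(RPKM + 1) scale in the null-labelled libraries and 6.65, 6.53 and 6.67 in the WT-labelled ones, a mean log2 fold change of 0.24. The 2 tested platelet genes averaged 2.11, 2.69 and 2.87 against 3.13, 3.0 and 2.71, a mean log2 fold change of -0.39. The first pair of groups did not overlap, with Gata2 as the 1 of the 3 factors that did not overlap by itself, and the second pair did. The difference between the roles was 0.64, with an SD of 0.30 over libraries about the mean of their own label. With a mean RPKM of at least 5, which drops Gp1bb, it became -0.73, so its direction rests on Gp1bb, the gene that overlaps Septin5. The 2 tested megakaryocyte-erythroid factors, Gfi1b and Zfpm1, averaged 1.87, 2.1 and 2.81 against 1.43, 1.79 and 1.6, a mean log2 fold change of 0.66.

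The partners of the stem and progenitor factors were expressed throughout. All 12 genes of that list were tested and none was called in limma, with 4 at an unadjusted p under 0.05 and 1, Lmo4, called by limma-voom. Their median log2 fold change was 0.07. The highest were Ssbp4 and Ldb1, the adaptors of the LMO2 complex, and Tcf3, the E protein that pairs with TAL1 and LYL1. Ldb1 stood at 88.9 ± 13.4 RPKM against 91.3 ± 15.7, and Tcf3 at 64.0, 83.2 and 67.5 RPKM against 46.7, 55.2 and 58.6 (adjusted p = 0.227, limma). Lmo4, a LIM-only relative of Lmo2, stood at 39.8, 48.8 and 42.0 RPKM against 82.6, 63.2 and 62.5 (log2 fold change -0.65, SE 0.16, adjusted p = 0.0593), without overlap, while Lmo1 overlapped and Lmo3 had no read.

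Of the 14 corepressors that FOG1 and GFI1B recruit, the NuRD complex and LSD1 with CoREST among them, all were tested and none was called by limma or by limma-voom. Fitted values were above 0 for 13 of them, with a median log2 fold change of 0.27 against 0.03 over all genes, and 1 had an unadjusted p under 0.05. The highest were Mbd3, Mta2 and Rbbp4, all parts of NuRD. Kdm1a, the gene of LSD1, stood at 28.4, 23.0 and 25.4 RPKM in the null-labelled libraries and at 18.8, 21.1 and 22.1 in the WT-labelled ones (adjusted p = 0.381, limma).

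Among 27 megakaryocyte and platelet genes outside the members, 10 were tested and none was called in limma, with 1 at an unadjusted p under 0.05 and 1, Thbs1, called by limma-voom. The median log2 fold change was -0.07. The other 17 were under the filter, 7 of them at 0 in every library, and no value among them passed 1.63 RPKM. Nfe2, the leucine-zipper factor of late megakaryocytes, was the most abundant of the list at 132 ± 20.7 RPKM against 130.2 ± 18.1, and its small Maf partners Mafg and Mafk followed, neither called.

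Of 31 erythroid genes, 28 were listed and 8 were tested, and 1 was called, with 4 at an unadjusted p under 0.05. Fech, the ferrochelatase that puts iron into heme, rose in the null-labelled libraries, at 66.8, 68.6 and 77.8 RPKM against 34.6, 37.9 and 36.5 (log2 fold change 0.95, SE 0.13, adjusted p = 0.00513 in limma), and was called in all 14 alternatives. Heme synthesis is used by all cells, and Urod, which encodes an earlier enzyme, was not called, at 40.8 ± 7.78 RPKM against 38.2 ± 3.94 (adjusted p = 0.856, limma). Alas2, the erythroid form of the first enzyme, had 7 reads in all. Hba-a1, an alpha globin, had no read in the null-labelled libraries and 5, 2 and 0 in the WT-labelled ones. The erythroid genes had a median log2 fold change of 0.05.

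**Figure D4:**
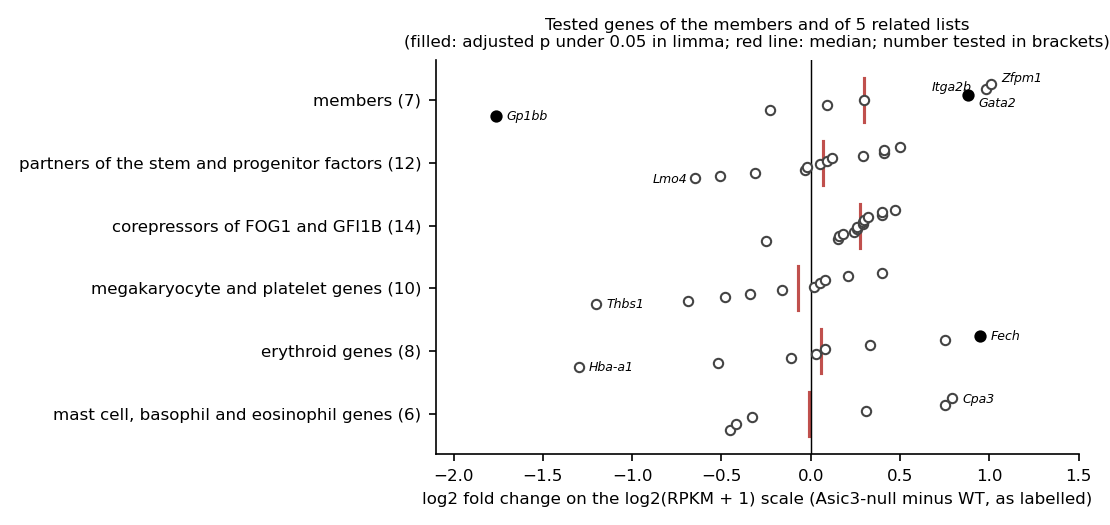
Fitted log2 fold change of each tested gene among the members and 5 related lists, null-labelled minus WT-labelled libraries. Filled points have an adjusted p under 0.05 in limma and red lines are medians. Fech is the 1 called gene of the 5 lists, and Gata2 and Gp1bb are the 2 among the members.

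GATA2 also works in mast cells, basophils and eosinophils, and 6 of 16 genes of those cells were tested. None was called by limma or by limma-voom, and 1 had an unadjusted p under 0.05. Cpa3 stood at 82.8 ± 18.8 RPKM against 54.9 ± 39.98, Csf2rb, a cytokine receptor chain, at 51.3 ± 9.15 against 71.1 ± 15.3, and the basophil protease Mcpt8 at 36.0 ± 13.1 against 28.3 ± 8.47, all with overlap. The median log2 fold change was -0.01. Of 5 defining mast cell and basophil markers, Prss34 and Fcer1a were at 0 in every library, and the summed level was 115 to 127 RPKM in the null-labelled libraries and 57.4 to 128 in the WT-labelled ones. In the T cell, B cell and endothelial lists 1 gene each was tested, Cd247, Cd79b and Pecam1, and neither tool called any of them, with 0 at an unadjusted p under 0.05.

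By Pearson correlation of log2(RPKM + 1) over the 6 libraries, the genes most like Gata2 were Fam172a (r = 0.997), Pole (r = 0.993) and Fbxl19 (r = 0.991). Those most like Itga2b were N6amt1 (r = 0.985), Bace1 (r = 0.979) and Yeats4 (r = 0.975). Fam172a stood at 24.1, 19.4 and 23.3 RPKM in the null-labelled libraries and at 14.6, 15.0 and 17.9 in the WT-labelled ones, with Asic3-null replicate 2 and WT replicate 3 nearest to each other as for Gata2. No gene of these 6 was past the threshold. In each library both genes share its label and depth, the libraries number only 6, and the genes were chosen out of 12037. These are therefore descriptions of likeness. Pf4, at 0 throughout, allows no such comparison.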

How the data were processed

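Per the labels, base calls came from CASAVA 1.8.2 and alignments to GRCm38 from TopHat2 2.0.12, and the authors deposited RPKM values for 27179 genes by Entrez number. The counting tool and annotation are not given in the sources used here, and the library kit does not mark strand. Symbols and positions came from RefSeq (GRCm38.p6), which matched 25275 genes. Each of the 16825 genes above 0 could be turned back into whole reads (tolerance 0.0001 reads), and these recovered reads, with library sizes from 1947168 to 2381861, are inferred. They carry no molecular identifiers, so a floor of 3 reads covers counting error only.

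Genes averaging 1 RPKM or more (12037, with a median of 83.3 reads per library) were compared as log2(RPKM + 1), Asic3-null minus WT as labelled, by limma 3.58.1 under R 4.3.3 (empirical Bayes with an intensity trend, no covariate, Benjamini-Hochberg adjustment over all tested genes, threshold 0.05, two-sided). Fold changes on this scale understate those of low genes. Other steps used numpy 2.4.6 and pandas 2.3.3, and the fit was tested on simulated data. Of each list of partners, corepressors, megakaryocyte and platelet, erythroid, mast cell, T cell, B cell, endothelial, neutrophil granule and sorted cell genes, the text names the 3 most abundant tested genes and up to 5 of those past the threshold, beside the members, the sex-linked genes and the 3 genes most like Gata2 and Itga2b. The gene families, Septin5, Spi1 and Itgb3 ratios, Kdm1a, Lmo4, Thbs1, Hba-a1, Alas2, Gp1ba, Gp5 and Gp9 were added to these with their values known. Some genes that the rule would name are not reported here. The members and lists were chosen with earlier results of these data known. The alternatives were a pseudocount of 0.1, no filter, a filter at 5 RPKM, scaling by median ratio, quantile normalization, a fit with no trend, a replicate block, each library left out, and limma-voom on the recovered reads. Hbb-bt, Hbb-b2 and Ahsp were not analysed here.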

Additional observations from a re-analysis of the deposited data

How the results depend on the processing

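Of 14 alternatives, 6 of them leaving out a library, none turned the direction of Gata2, Lmo2, Lyl1, Zfpm1, Gp1bb or Itga2b, and Gfi1b turned without Asic3-null replicate 3. The count of members past the threshold, 2, became 0 with no filter, 1 with a mean RPKM of at least 5, where Gp1bb was not tested, 1 with no intensity trend, 3 with quantile normalization and 3 with limma-voom (Zfpm1 added in both), and 0 to 1 with a library left out. Over all genes the count of 403 became 172 to 258 with a library left out and 288 to 543 under the other settings apart from the block. The difference between stem and progenitor factors and platelet genes, 0.64, became 0.95 with a pseudocount of 0.1, -0.73 with the filter at 5 RPKM and 0.46 to 0.79 with a library left out. With limma-voom, 1 partner gene and 1 megakaryocyte or platelet gene were called. With a library left out, the called erythroid genes numbered 1 to 2, the mast cell, basophil and eosinophil genes 0 to 1 and the sorted cell markers 1 to 2: the added calls were Hba-a1 without WT replicate 3, Cpa3 without WT replicate 2 and Mpo without WT replicate 1. Asic3 was past the threshold in 7 of 13 alternatives. The causes of these shifts were not tested. The median log2 fold change of all genes, 0.03, was 0.02 with median-ratio scaling and 0.06 with quantile normalization.

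With the replicate number as a block, 0 members and 246 genes were past the threshold, and no list changed its count. The numbers did not pair the samples: libraries of the same number correlated at 0.059, -0.059 and -0.12 in their deviations from the group means, and not every library correlated best with its own number.

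Low depth limits Tal1, Gata1, Pf4, Gfi1b and Gp1bb most.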
